A study of Mus musculus with 32 samples.

Results

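Interferon-stimulated genes were followed across 4 Ba/F3 lines, from the 42 genes of a list of textbook interferon targets. A gene was measured where the array has a probe set assigned to its symbol alone. This held for 38 of the 42, each with 1 probe set, among 19938 such genes on the array. Isg15, Gbp2 and Igtp share their probe set with another gene and were left out, and so was Ifi44. The genes were chosen by name, with earlier results of these data known.

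Interferons bind receptors at the cell surface and activate JAK kinases, which phosphorylate transcription factors of the STAT family. Type I interferon assembles a complex that holds IRF9 and binds the interferon-stimulated response element, while STAT dimers bind the GAS element. The targets restrict viruses, sense foreign nucleic acid, present antigen or limit the signal itself, and many are also expressed at a low level without added interferon. Ba/F3 is a murine pro-B cell line that depends on interleukin-3.

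Each line was represented by 8 arrays, 32 in all. Every line, Ba/F3-gp130 included, carried transduced human gp130. Ba/F3-gp130 had no further transduced receptor. Ba/F3-IL-12Rβ1-IL-23R, here the natural receptor line, also carried the IL-23R and IL-12Rβ1 chains of the IL-23 receptor. The SyCyR (synthetic cytokine receptor) lines carried chains whose outer part was replaced by a nanobody (VHH) against GFP or mCherry. The paired SyCyR line, Ba/F3-SyCyR(IL-23/2A), had C_VHH-IL-23R and G_VHH-IL-12Rβ1, joined by a 2A peptide. The single SyCyR line, Ba/F3-SyCyR(IL-23R), had only G_VHH-IL-23R. The chains were introduced with retroviruses, the cells were grown with Hyper-IL-6, and the lines were selected and cultured independently. Per the methods, Hyper-IL-6 was removed after drug selection, and transduced lines were then selected for growth that depends on GFP:mCherry proteins. Cells of the natural receptor line were given medium with Hyper-IL-23 (HIL-23). The cytokines in culture thus differed between lines. Each receptor combination is 1 line, so the receptor and the history of its line cannot be told apart.

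Per the study's methods, cells were starved for 3 h and given GFP-mCherry, 3xGFP or HIL-23 at 100 ng/ml for 1 h, with supernatant of untransfected CHO-K1 cells as the control. For each array the labels name the line and a number between 13 and 20, and not its stimulation. A line comparison therefore spans all 8 arrays, and by the methods those of a receptor line include both stimulated and control cells. Values are log2 values normalized by RMA (robust multi-array average). The median of all probe set means was 7.04, and a gene below it was not shown to be above background. Of the 38 genes, 24 had a mean above 7.04 and 14 had a mean below it.

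Arrays of a line correlated at 0.988 or more, and none was identical to another. Of 13 measured pro-B markers 4 lay above 7.04 in every line, namely Cd79a, Cd79b, Vpreb2 and Igll1, whereas Ebf1, Pax5, Rag1 and Rag2 did not. Of 6 measured markers of erythroid cells and megakaryocytes, 5 lay above 7.04 in every line, namely Klf1, Gata1, Epor, Itga2b and Gp9. Of 8 markers of mast cells and basophils, 4 did so in Ba/F3-gp130 and 3 in each receptor line. Markers of plasmacytoid dendritic cells, the main producers of type I interferon in blood, lay above 7.04 for at most 1 of 6 genes, and their defining marker Siglech did not. Of 12 markers of granulocytes and macrophages, 4 lay above 7.04 in Ba/F3-gp130 and 4 in the natural receptor line, 6 in the paired SyCyR line and 7 in the single SyCyR line.

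The letters GAAA followed by any 2 bases and GAAA, a core form of the interferon-stimulated response element, were searched on both strands of the RefSeq promoter windows of 300 bases (build GRCm38.p6). Windows were found for 28 of the 38 genes, and 11 of them held the letters, compared with 3.99% of all 27025 genes with a window. Of the 13 genes that later differed between lines, 9 had a window, against 19 of the other genes, of which 8 held the letters. Among the 9, the letters stood in the windows of Irgm1, Trim30a and Gbp3. The 100 bases before the start of these genes are shown because their levels carry results below, with the matching letters in capitals, 5′ to 3′ on the strand of the gene.

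Irgm1, chr11:48871421-48871520, minus strand: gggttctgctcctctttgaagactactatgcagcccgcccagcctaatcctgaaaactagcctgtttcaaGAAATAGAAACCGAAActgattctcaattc
Trim30a, chr7:104465194-104465293, minus strand: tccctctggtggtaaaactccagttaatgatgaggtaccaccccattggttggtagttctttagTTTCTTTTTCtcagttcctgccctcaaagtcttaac
Gbp3, chr3:142559916-142560015, plus strand: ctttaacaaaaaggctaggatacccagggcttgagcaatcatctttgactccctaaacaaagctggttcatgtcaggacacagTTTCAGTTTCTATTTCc

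Irgm1 and Gbp3 each held 2 overlapping matches, and Trim30a held 1, which lay on the opposite strand as in Gbp3. The letters TTCNNNGAA, a core of the GAS element, stood in the windows of 5 of the 28 genes and in those of 9.55% of all genes. Ifit2 was the only one of the 9 with these letters. The 2 strings can share bases where they meet, and a match is only a match of letters.

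The natural receptor line stood apart from Ba/F3-gp130 in these genes. With limma over all 23410 probe sets with a symbol, 11 of the 38 genes were called higher and 0 lower. Called here means a difference of 1.5-fold or more with an adjusted p (Benjamini-Hochberg) under 0.05. This is 28.9% of the 38 genes, and 2.91% of all probe sets tested were called, 1.64% higher and 1.27% lower. Without the fold limit 19 genes were higher and 2 lower, when 17.9% of all probe sets passed. The median difference of the 38 genes was 0.26 on the log2 scale, and that of all probe sets was 0.01. The higher genes were Rtp4, Oas2, Irgm1, Ifit2, Dhx58, Lgals3bp, Irf7, Xaf1, Usp18, Trim30a and Irf9. In 13 genes every array of this line lay above every Ba/F3-gp130 array, which 2.68% of all probe sets did.

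Markers of blood cell types differed in this line too. Among 12 markers of granulocytes and macrophages, 3 were called, namely Mpo at -2.54, Ctsg at -1.28 and Fcgr1 at 0.81, and the mean of the 12 lay between 6.62 and 6.95 per array, against 6.90 to 7.23 in Ba/F3-gp130. The mast cell and basophil markers, of which Gata2 was called at -0.68, had 7 of 8 measured genes with a negative difference and a mean of 7.02 to 7.36 against 7.40 to 7.67. The megakaryocyte gene Gp9 was 3.02-fold higher, the only 1 called of 6 erythroid and megakaryocyte markers, of which 2 had a negative difference. The B-lineage gene Cd79a was 2.02-fold higher, the only 1 called of 13 pro-B markers, of which 7 had a negative difference. None of the 6 measured markers of plasmacytoid dendritic cells or of the 6 of T cells was called. The part of the markers that differed in the changes of the 38 genes was not tested.

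**Figure D1:**
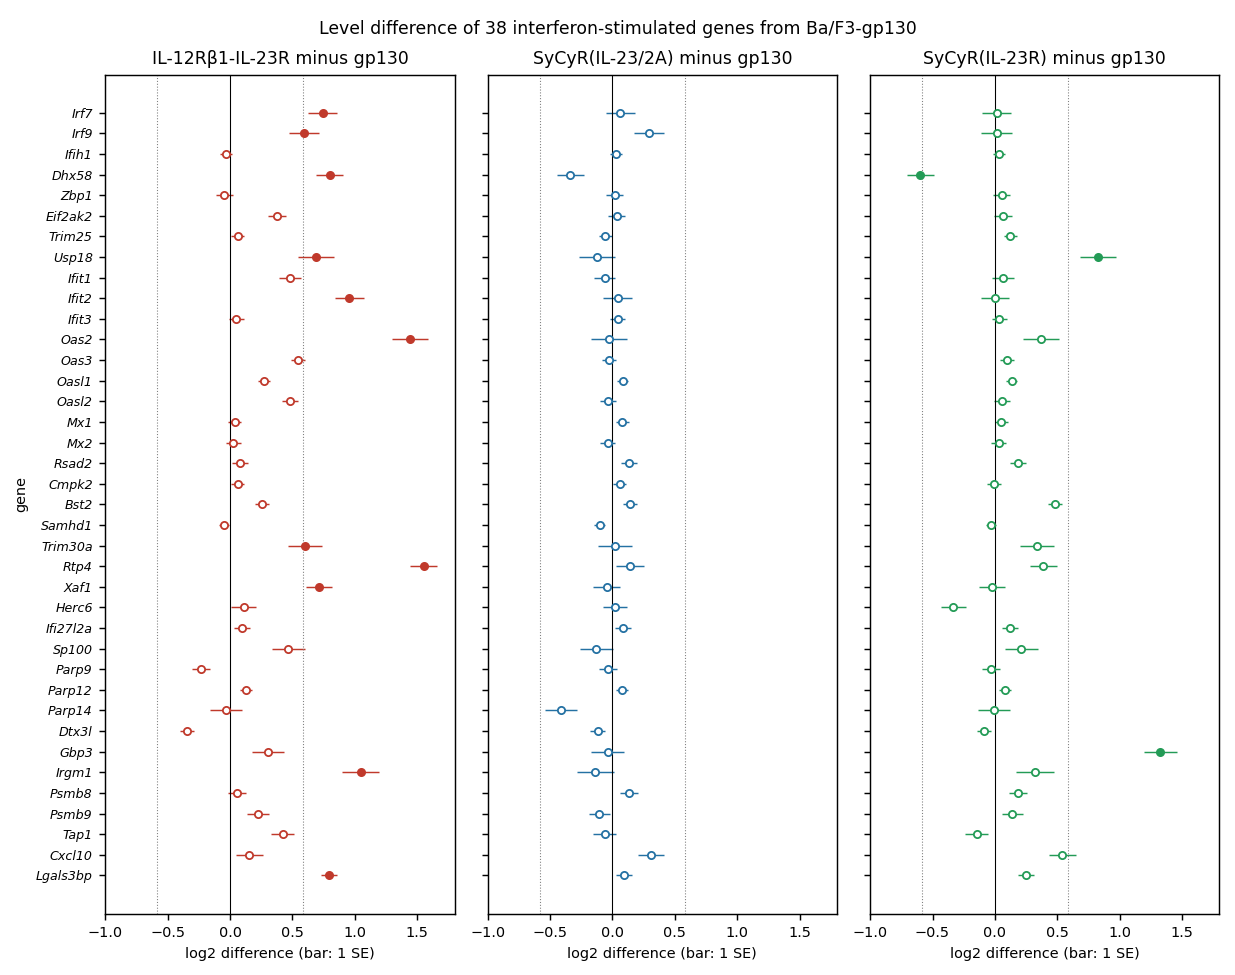
Difference in log2 level from Ba/F3-gp130 for each of the 38 genes (rows, by role) in the 3 receptor lines (panels). Points are limma estimates over 8 and 8 arrays with 1 SE, filled where called, and dotted lines mark 1.5-fold. The filled points are 11 in the natural receptor line, 0 in the paired SyCyR line and 3 in the single SyCyR line.

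Among the 8 measured regulators and sensors, 4 were called higher in the natural receptor line. Irf7, a transcription factor that amplifies interferon production, ran from 8.22 to 9.08 (median 8.58) in this line and from 7.51 to 8.19 (median 7.93) in Ba/F3-gp130. No array overlapped, and the difference was 0.74 (SE 0.12, adjusted p = 6.7e-06). Dhx58 encodes LGP2, an RNA helicase that tunes sensing by RIG-I and MDA5. Its values ran from 7.86 to 8.88 (median 8.18) against 7.40 to 7.75 (median 7.49), a difference of 0.80 (SE 0.11, adjusted p = 5.9e-07).

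Usp18 encodes the protease that removes ISG15 from proteins and blocks the type I receptor. It ranged from 7.34 to 8.33 (median 7.75) in the natural receptor line and from 6.79 to 7.33 (median 7.15) in Ba/F3-gp130, a difference of 0.69 (SE 0.14, adjusted p = 0.00048). All of its arrays lay above those of Ba/F3-gp130, by a narrow gap. Irf9, a DNA-binding factor of the type I interferon response, had a median of 9.30 (8.89 to 9.78) against 8.74 (8.41 to 8.94), with overlap, and a difference of 0.59 (SE 0.12, adjusted p = 4e-04). Its difference was 0.88 over the odd-numbered arrays alone and 0.31 (adjusted p = 0.077) over the even-numbered ones, and it fell under the fold limit with centred arrays (0.57) and without arrays 17 and 18 (0.55). Eif2ak2, which encodes the RNA-activated kinase PKR, rose by 0.38 (adjusted p = 0.00011), under 1.5-fold. Ifih1, Zbp1 and Trim25 had differences between -0.05 and 0.06 and did not pass the test.

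The antiviral effectors contributed 5 of the 11 genes, from 19 measured. Rtp4, which encodes a receptor transporter protein, had the largest difference of the 38 genes, at 1.55 (SE 0.11, adjusted p = 1.9e-13). Its values ran from 6.88 to 7.79 (median 7.39) in the natural receptor line and from 5.75 to 5.98 (median 5.84) in Ba/F3-gp130. The groups were far apart, but the Ba/F3-gp130 values lie under 7.04 and the size of the change is therefore not given as a fold.

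Oas2 belongs to the synthetases that make 2′-5′ oligoadenylate and so activate RNase L. Its values were 8.16 to 9.48 (median 8.71) in the natural receptor line and 6.91 to 7.78 (median 7.43) in Ba/F3-gp130, without overlap and 2.72-fold apart (adjusted p = 9.1e-10). The related genes were higher as well, by less. Oas3 rose by 0.54 (adjusted p = 2e-09), Oasl2 by 0.48 (adjusted p = 8.7e-07) and Oasl1 by 0.27 (adjusted p = 2.6e-05), each under 1.5-fold. The Ba/F3-gp130 medians of Oas3 and Oasl2 lay under 7.04.

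Within the Ifit family, whose proteins bind viral RNA, 1 of 3 measured genes was called. Ifit2 ranged from 7.62 to 8.63 (median 8.47) in the natural receptor line and from 7.08 to 7.57 (median 7.39) in Ba/F3-gp130, 1.94-fold apart (adjusted p = 3.1e-08). The lowest arrays of the former, numbers 15 and 19 at 7.74 and 7.62, still lay above all of Ba/F3-gp130. Ifit1 rose by 0.48 (adjusted p = 7.3e-05) and Ifit3 differed by 0.05 (adjusted p = 0.68), both at levels under 7.04. Xaf1, a gene linked to apoptosis, rose by 0.71 (SE 0.11, adjusted p = 3e-06), from a median of 7.11 (6.71 to 7.33) to 7.78 (7.43 to 8.30). Trim30a, which encodes a TRIM protein that limits NF-κB signalling, had 10.33 to 11.08 (median 10.70) against 9.56 to 10.48 (median 10.22). These arrays overlapped, and the difference of 0.60 (SE 0.14, adjusted p = 0.0012) lay at the fold limit. It lost its call with centred arrays (0.58), without arrays 17 and 18 (0.55) and over the even-numbered arrays alone (0.56, adjusted p = 0.073).

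Several classical antiviral genes were not shown to be above background in any line. Mx1 ran from 4.42 to 4.82 in the natural receptor line and from 4.40 to 4.63 in Ba/F3-gp130. The differences of Mx1, Mx2, Rsad2 and Cmpk2 lay between 0.02 and 0.08, and none passed the test. Samhd1 and Ifih1 did not pass it either, at -0.05 and -0.03.

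**Figure D2:**
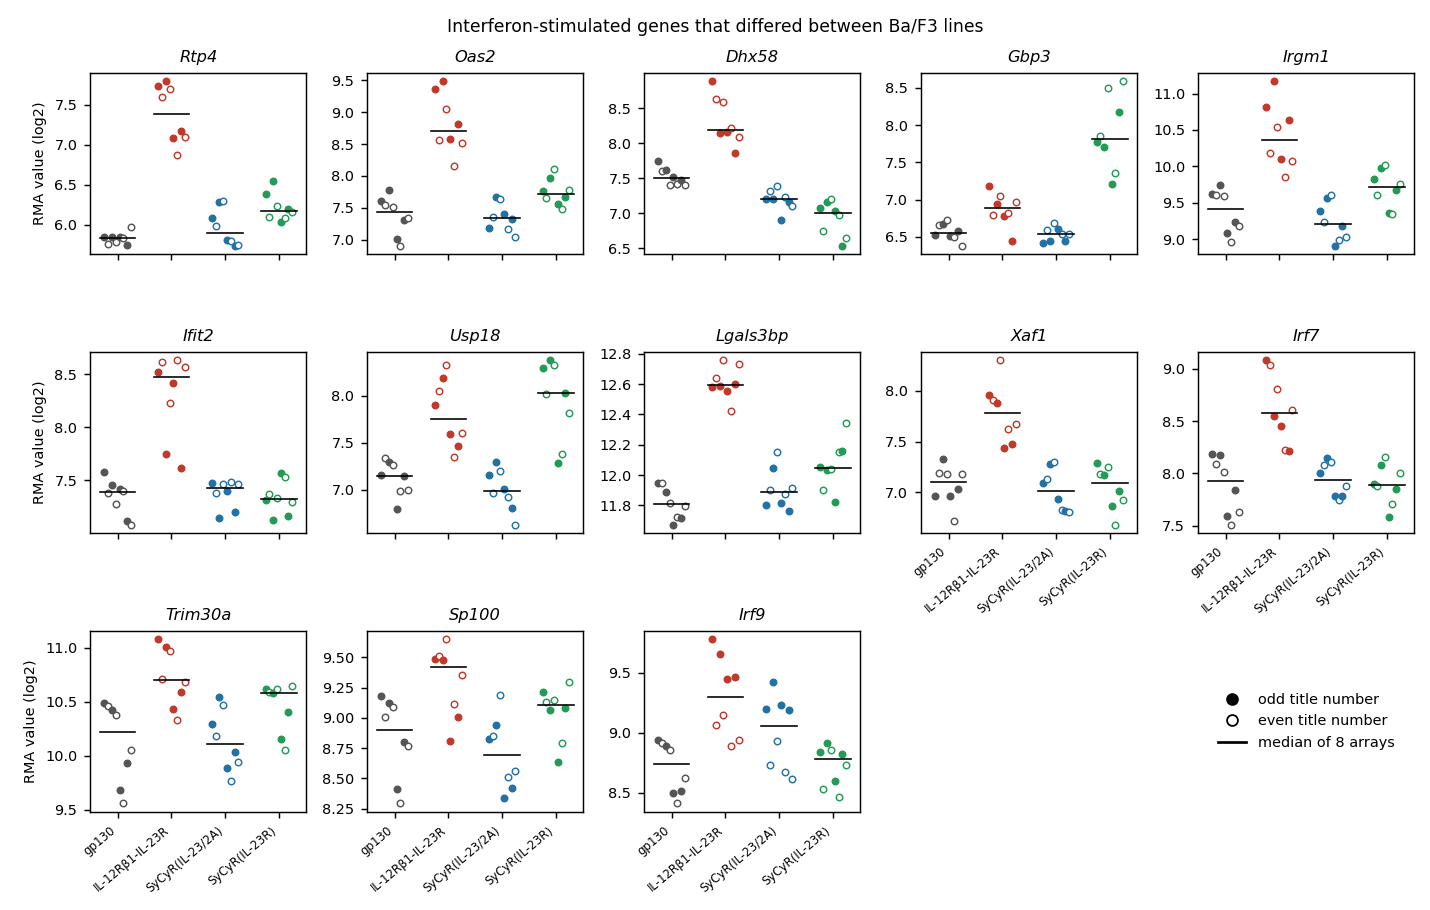
Log2 RMA values of the 13 genes called in at least 1 comparison of lines, 1 panel per gene, with each array as a point (filled for odd title numbers, open for even) and a bar at the median of 8. The natural receptor line lies highest in most panels, while Gbp3 is highest in the single SyCyR line, from 7.21 to 8.59.

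Of the 2 measured GTPases of cell-autonomous defence, Irgm1 rose. It ran from 9.85 to 11.17 (median 10.37) in the natural receptor line and from 8.95 to 9.74 (median 9.41) in Ba/F3-gp130. The ranges did not overlap, and the lines were 2.07-fold apart (adjusted p = 1.4e-06). Gbp3 differed by 0.30 (adjusted p = 0.12). Lgals3bp, which encodes a secreted galectin-binding glycoprotein, ran from 12.42 to 12.76 (median 12.60) against 11.67 to 11.95 (median 11.81), 1.74-fold apart (SE 0.06 on the log2 scale, adjusted p = 3e-12). The chemokine gene Cxcl10 differed by 0.16 (adjusted p = 0.38).

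The genes of antigen processing and of the PARP group moved little. Tap1, a subunit of the peptide transporter, rose by 0.42 (adjusted p = 0.00075), while the immunoproteasome genes Psmb8 and Psmb9 had differences of 0.05 and 0.22 that did not pass the test. Dtx3l and Parp9, whose proteins form an E3 ligase complex, fell by 0.34 (adjusted p = 2.2e-05) and by 0.23 (adjusted p = 0.022), under 1.5-fold. Every Dtx3l array of the natural receptor line, at 9.87 to 10.16, lay under every array of Ba/F3-gp130, at 10.25 to 10.60. Both genes lie on chromosome 16, with Parp14, Mx1, Mx2 and Rtp4. On that chromosome the 334 genes above background had a median difference of -0.41 in this line, against -0.01 on the other chromosomes, and 87.4% of them were lower. The part of this shift in the 6 genes was not tested. Rtp4 lies there and was the most raised of the 38.

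In the paired SyCyR line these genes lay near their Ba/F3-gp130 levels. With limma none of the 38 was called, and 0.56% of all probe sets were, 0.363% higher and 0.196% lower. At an unadjusted p under 0.05 there were 8 genes, when 19.2% of all probe sets passed, and 1 of them, Parp14, passed without the fold limit, with a difference of -0.42 (adjusted p = 0.048), as did 6.23% of all probe sets. The median difference of the 38 genes was 0.02 and that of all probe sets 0.01. The differences ran from -0.42 for Parp14 to 0.31 for Cxcl10. Dhx58 was the 1 gene of 38 whose arrays did not overlap, by a narrow gap, at 6.90 to 7.39 against 7.40 to 7.75 in Ba/F3-gp130. Of all probe sets, 1.48% lay fully lower and 0.923% fully higher in this comparison. The difference of Dhx58, -0.34, had an adjusted p of 0.059.

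Set directly against the natural receptor line, the same line had 10 genes lower and 0 higher, with 2.62% of all probe sets called, 1.17% higher and 1.46% lower. Without the fold limit there were 20 genes, when 18.4% of all probe sets passed. This comparison shares its arrays with those above and is no independent support of them. The largest differences were -1.47 in Oas2 (SE 0.14, adjusted p = 6e-10), -1.41 in Rtp4 and -1.19 in Irgm1. Oas2 ran from 7.04 to 7.67 (median 7.34) and Irgm1 from 8.91 to 9.61 (median 9.21) in the paired SyCyR line, in both cases under every array of the natural receptor line. Dhx58, Ifit2, Usp18, Xaf1, Lgals3bp, Irf7 and Sp100 were the other 7. Sp100, a nuclear body protein gene, was called in this comparison alone, at -0.60 (SE 0.13, adjusted p = 0.0011), with overlapping values of 8.34 to 9.19 and 8.81 to 9.65. It lost this call with centred arrays (-0.58) and over the odd-numbered arrays alone (-0.57, adjusted p = 0.084).

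The single SyCyR line differed from Ba/F3-gp130 in 3 genes, 2 higher and 1 lower, with 1.52% of all probe sets called, 0.867% higher and 0.649% lower. Without the fold limit 10 genes passed, as did 14.7% of all probe sets. Gbp3, which encodes a guanylate-binding protein, ran from 7.21 to 8.59 (median 7.81) in this line and from 6.38 to 6.72 (median 6.55) in Ba/F3-gp130, a difference of 1.33 (SE 0.13, adjusted p = 2.8e-09). Its arrays were also the most spread of the 38 genes in this line, over 1.38 log2 units. In the other 3 lines the median of Gbp3 stayed under 7.04, and no fold is given.

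Usp18 rose by 0.82 (SE 0.14, adjusted p = 8.2e-05), with 7.29 to 8.38 (median 8.03) in the single SyCyR line. Array 17, at 7.29, lay inside the range of Ba/F3-gp130, and the other 7 arrays lay above it. Dhx58 went the other way from its rise in the natural receptor line and fell by 0.60 (SE 0.11, adjusted p = 0.00013), to 6.53 to 7.21 (median 7.0), below every array of Ba/F3-gp130. The median of Dhx58 in this line lay just under 7.04. Over the even-numbered arrays alone Dhx58 fell by 0.56, under 1.5-fold. Below the fold limit, Bst2, which encodes tetherin, rose by 0.48 (adjusted p = 3.1e-08) without overlap and Lgals3bp by 0.25 (adjusted p = 0.0045), while Herc6 fell by 0.33 (adjusted p = 0.018). Cxcl10 rose by 0.54 (adjusted p = 3e-04) and Rtp4 by 0.39 (adjusted p = 0.013), also below the fold limit. The medians of Cxcl10 and Rtp4 lay under 7.04 in both lines.

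Some granulocyte and macrophage markers differed in this line. Lyz2 was higher by 1.43, Itgam by 1.86, Ctsg by 1.33 and Fcgr1 by 1.96, and Mpo was lower, with a difference of -1.89. The mean of the 12 granulocyte and macrophage markers lay between 7.22 and 7.74 per array, compared with 6.90 to 7.23 in Ba/F3-gp130. Csf1r, Adgre1, Elane, Ly6g and Cybb were not above 7.04. In bulk samples a change in the makeup of the cells and a change within each cell cannot be told apart, and the part of these markers in the differences of Gbp3 and Usp18 was not tested.

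Compared with the natural receptor line, the line had 7 genes lower and 1 higher, with 3.12% of all probe sets called, 1.57% higher and 1.55% lower. Without the fold limit there were 21 genes, when 22.5% of all probe sets passed. Dhx58 fell by 1.40 (SE 0.11, adjusted p = 2e-12), followed by Rtp4, Oas2, Ifit2, Xaf1, Irgm1 and Irf7, and Gbp3 rose by 1.02 (SE 0.13, adjusted p = 1.7e-07). Irgm1, at -0.73, was at -0.48 (adjusted p = 0.081) over the even-numbered arrays alone. Usp18 was called higher than in Ba/F3-gp130 at 1.5-fold in both lines, and it was not called between them. Between the SyCyR lines, Gbp3 and Usp18 were higher in the single SyCyR line, by 1.36 (adjusted p = 1.8e-09) and 0.95 (adjusted p = 1.9e-05), with 1.05% of all probe sets called, 0.671% higher and 0.376% lower. Without the fold limit 6 genes passed there, as did 7.74% of all probe sets.

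Over all 6 comparisons of lines, 13 of the 38 genes were called at least once and 25 were not. In a single comparison 0.56% to 3.12% of all probe sets were called, and their share over the 6 together was not computed. The mean deviation of the 38 genes from their Ba/F3-gp130 means summarises each array. It ran from 0.21 to 0.53 (median 0.35) in the natural receptor line, and from -0.13 to 0.10 (median 0.01) in Ba/F3-gp130 itself. In the single SyCyR line it ran from 0.01 to 0.24 (median 0.16) and in the paired SyCyR line from -0.10 to 0.12 (median -0.02). The natural receptor line overlapped with the single SyCyR line alone.

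**Figure D3:**
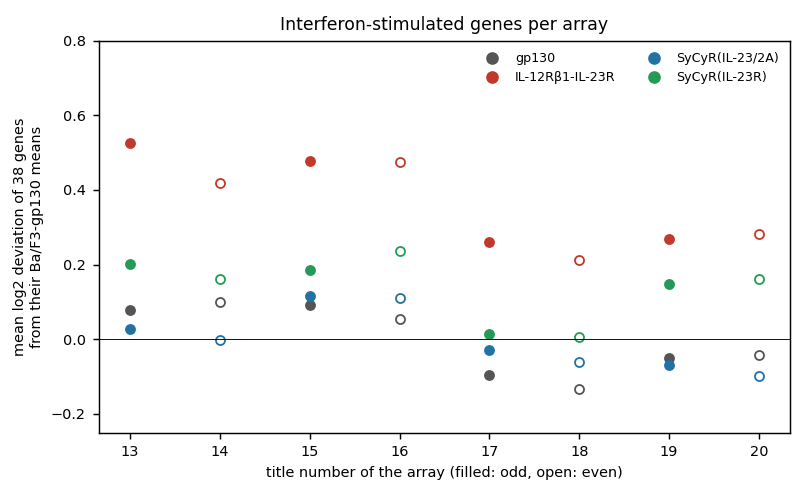
Mean log2 deviation of the 38 genes from their Ba/F3-gp130 means for each array (y axis), by title number (x axis, filled points odd, open points even) and line (colour). Array 18 is the lowest in Ba/F3-gp130 (-0.13), the natural receptor line (0.21) and the single SyCyR line (0.01).

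The levels also varied with the number of the array. In Ba/F3-gp130, the natural receptor line and the paired SyCyR line, the 4 arrays numbered 13 to 16 all had a higher mean deviation than the 4 numbered 17 to 20, which was seen after the values were known and was not tested. Trim30a shows it in Ba/F3-gp130, with 10.38 to 10.48 at numbers 13 to 16 and 9.56 to 10.06 at numbers 17 to 20. The labels do not say what the numbers stand for. Without arrays 17 and 18 the count of genes called between the natural receptor line and Ba/F3-gp130 was 10, of which 9 were among the 11, and with the number as a block it was 11.

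Odd and even numbers were compared within each line, because in other genes they divide the arrays of the receptor lines. Socs3, the STAT3-induced feedback inhibitor, is given as a description of that split. In the natural receptor line it lay between 12.77 and 13.01 at odd numbers and between 8.20 and 8.44 at even numbers. All 8 arrays of Ba/F3-gp130 lay between 8.44 and 8.66. The odd-minus-even medians of Socs3 were 4.57 in the natural receptor line, 3.74 in the paired SyCyR line and 3.05 in the single SyCyR line. The study lists Socs3 among the genes most raised by stimulation in each of these lines. The split was proposed with earlier results of these data known, and the labels do not say what it stands for. Whether odd numbers mark the stimulated arrays was not tested, and no stimulation is read from them.

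None of the 38 genes was called between odd and even numbers in any line. The share of all probe sets called was 0% in Ba/F3-gp130, 0.991% in the natural receptor line, 0.487% in the paired SyCyR line and 0.137% in the single SyCyR line. At an unadjusted p under 0.05 in limma there were 0, 8, 4 and 0 genes in that order, beside 1.11%, 17.4%, 6.88% and 3.53% of all probe sets. Without the fold limit the counts were 0, 2, 1 and 0, when 0%, 3.12%, 0.953% and 0.175% of all probe sets passed. The median odd-minus-even difference of the 38 genes lay between 0.01 and 0.04 in the 4 lines.

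Irf9 came closest. In the natural receptor line its odd-numbered arrays were at 9.78, 9.66, 9.45 and 9.46 and its even-numbered arrays at 9.06, 9.15, 8.89 and 8.94. The difference of 0.57 (SE 0.11, adjusted p = 0.0015) was just under 1.5-fold. In the paired SyCyR line they were at 9.20, 9.42, 9.23 and 9.19 against 8.73, 8.93, 8.67 and 8.61, a difference of 0.52 (SE 0.11, adjusted p = 0.011). The odd and even arrays were fully apart in both lines. In the single SyCyR line the difference was 0.15 (adjusted p = 1) and in Ba/F3-gp130 it was 0.01. Against that in Ba/F3-gp130, the odd-even difference of Irf9 in the natural receptor line was larger by 0.57 (adjusted p = 0.086) and did not pass the test of the difference itself. None of the 38 genes passed that test in any of the receptor lines, in which 1.2%, 0.402% and 0.0982% of all probe sets did. With a block of consecutive numbers Irf9 passed it in the natural receptor line (adjusted p = 0.0011) and the paired SyCyR line (adjusted p = 0.0074), and Irgm1 passed it in the former (0.43, adjusted p = 0.023), when 2.3% and 0.735% of all probe sets passed in these lines.

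Apart from Irf9, the odd and even arrays lay fully apart in few genes and at small size. These were Cmpk2 in the natural receptor line, at 5.33 to 5.44 and 5.08 to 5.20 (adjusted p = 0.049), Rsad2 in the paired SyCyR line, and Cmpk2 in the single SyCyR line with the odd arrays lower. Both genes lie under 7.04. Of all probe sets, 4.71% lay fully apart with the odd arrays higher in the natural receptor line, compared with 2 of the 38 genes. The share was 3.09% in the paired SyCyR line, also beside 2 genes, and 0.564% lay apart with the odd arrays lower in the single SyCyR line, beside 1 gene. Oas2, Irgm1 and Ifit2 had odd-minus-even differences of 0.49, 0.52 and -0.44 in the natural receptor line, with adjusted p of 0.19, 0.18 and 0.10. These come from the limma fit without a block. In each pair of consecutive numbers of that line, Oas2 and Irgm1 were higher and Ifit2 was lower at the odd number. This was seen after the values were known, and no label pairs these arrays.

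**Figure D4:**
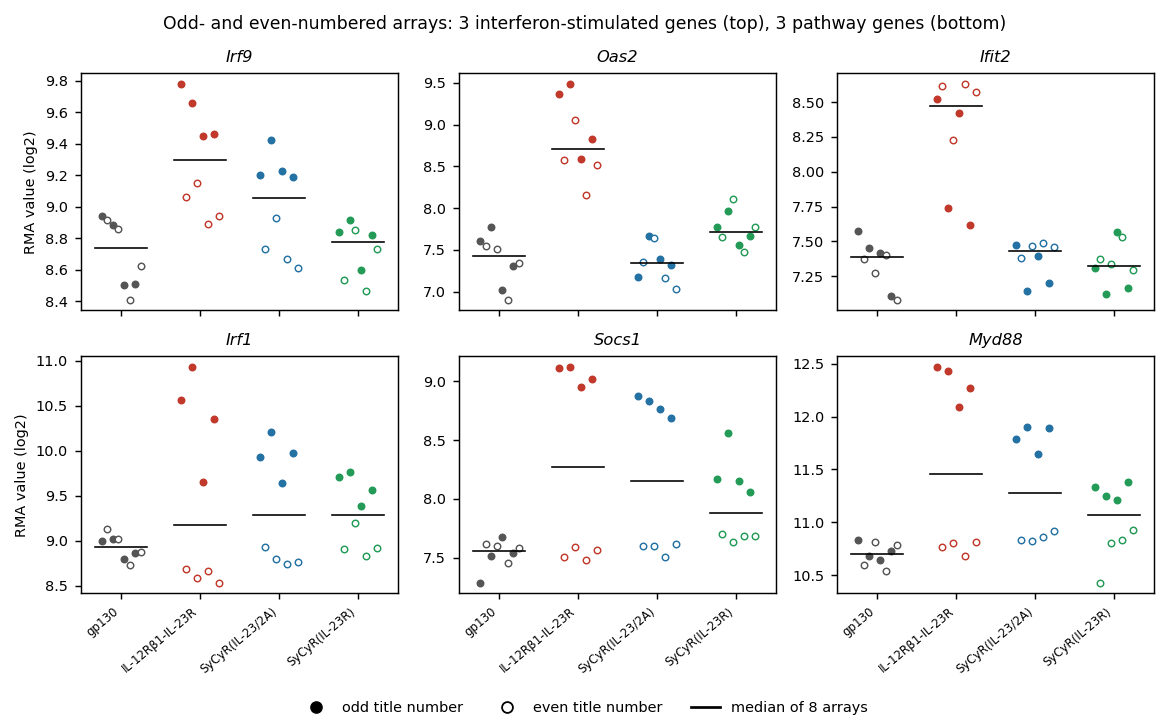
Log2 RMA values by line of Irf9, Oas2 and Ifit2 (top) and of the pathway genes Irf1, Socs1 and Myd88 (bottom), each array a point (filled for odd title numbers, open for even) with a bar at the median of 8. Odd and even arrays part in the bottom panels for the receptor lines and in Irf9 for 2 of them, and their ranges overlap in Oas2 and Ifit2.

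Other genes of the pathway did differ between odd and even numbers. Irf1, an early transcription factor of the interferon response, was at 9.65 to 10.93 at odd and 8.53 to 8.69 at even numbers in the natural receptor line, 3.39-fold apart (adjusted p = 8.9e-10). It was 2.19-fold apart in the paired SyCyR line (adjusted p = 1.6e-05) and 0.64 on the log2 scale in the single SyCyR line (adjusted p = 0.12). In Ba/F3-gp130 the difference was -0.02. Socs1, which encodes an inhibitor of JAK kinases, was 2.86-fold higher at odd numbers in the natural receptor line (adjusted p = 3.9e-15), 2.31-fold in the paired SyCyR line (adjusted p = 1.6e-12) and 1.47-fold in the single SyCyR line (adjusted p = 8e-05).

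Of 14 measured genes of nucleic acid sensing, 3 were called between odd and even numbers in the natural receptor line, and the same 3 in the paired SyCyR line. Of all probe sets, 0.991% and 0.487% were called in these tests. Myd88, the Toll-like receptor adaptor, rose by 1.55 and 0.95, Sting1 by 0.95 and 0.71, and Cgas, the DNA sensor upstream of Sting1, by 0.71 and 0.64. None of 12 genes of ligands and receptors was called between odd and even numbers in any line. A further list of 51 measured interferon-stimulated genes also had 0 called in every line. With at most 0.991% of all probe sets called in a line, such counts of 0 do not set these lists apart.

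Between the lines, pathway genes were called as follows. In the natural receptor line against Ba/F3-gp130, 0 of 12 ligand and receptor genes, 1 of 9 kinase, STAT and inhibitor genes, 0 of 6 IRF factors and 2 of 14 sensing genes were called, all higher, beside 2.91% of all probe sets. They were Socs1, Ddx58 and Myd88. Socs1 (0.76, adjusted p = 0.031) and Myd88 (0.84, adjusted p = 0.011) were called over the odd-numbered arrays alone, at 1.54 and 1.59, and not over the even-numbered arrays, at -0.03 (adjusted p = 0.83) and 0.09 (adjusted p = 0.65). Ddx58, which encodes the RNA sensor RIG-I, ran from 9.80 to 10.52 against 8.79 to 9.47, 2.07-fold apart without overlap (adjusted p = 3e-10). Stat2 rose by 0.48 (adjusted p = 2.6e-05), under 1.5-fold. Ifnar1, a chain of the type I receptor on chromosome 16, fell by 0.47 (SE 0.04, adjusted p = 1.1e-11). It had a median of 9.88 (9.73 to 9.98) against 10.37 (10.24 to 10.46) in Ba/F3-gp130. Ifnar2, on the same chromosome, fell by 0.32 (adjusted p = 0.005). Ifngr2, a chain of the type II receptor also on chromosome 16, fell by 0.58 (adjusted p = 5.8e-08), just under 1.5-fold. The part of the lower levels of that chromosome in these falls was not tested.

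Of the further 51 interferon-stimulated genes, 1 was called in the natural receptor line, 0 in the paired SyCyR line and 2 in the single SyCyR line, each against Ba/F3-gp130, beside 2.91%, 0.56% and 1.52% of all probe sets. In the natural receptor line this was 1.96% of the 51 genes, under the share of all probe sets, whereas 28.9% of the 38 genes were called. Without the fold limit 12 of the 51 were higher and 7 lower there, when 17.9% of all probe sets passed. Gbp7, another guanylate-binding protein gene, was higher by 1.17 (adjusted p = 5.1e-05) and by 1.31 (adjusted p = 2e-05) in the first and the last of these lines. Its median was 8.61 (7.58 to 9.0) in Ba/F3-gp130, 9.84 (8.98 to 10.16) in the natural receptor line and 9.98 (9.13 to 10.21) in the single SyCyR line. Slfn2, a Schlafen gene, rose by 0.60 (adjusted p = 0.00034) in the single SyCyR line. Its medians of 7.06 there and 6.63 in Ba/F3-gp130 lie at and under background, and over the even-numbered arrays alone it lost its call (0.55). In this line Ifngr2 rose by 0.74 (SE 0.07, adjusted p = 1.3e-09) and the kinase gene Ikbke by 0.66 (adjusted p = 4.6e-06).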

How the data were processed

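RNA of 32 samples was hybridised to Affymetrix mouse Gene ST arrays. In Expression Console the authors applied RMA with sketch-quantile scaling. What they deposited is 1 log2 value per probe set and array, and the version of the software is not stated. The number of arrays limits the precision. Arrays were grouped by the line in the labels. The study describes independent biological replicates, but not for Ba/F3-gp130, so p-values there measure the spread between these samples, which may be technical. RMA quantile scaling sets all arrays to a common distribution, so differences are relative to the other probe sets.

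Gene names came from the platform annotation, in which 21789 probe sets have 1 symbol, 1621 have several and 12146 have none. Probe sets with several symbols gave no gene name. limma 3.58.1 in R 4.3.3 (lmFit, eBayes, two-sided) was fitted to all 32 arrays and 23410 probe sets, with the 4 lines as groups, or with 8 groups of line and odd or even number. Genes were called at 1.5-fold or more with an adjusted p (Benjamini-Hochberg) under 0.05, and for the difference between 2 odd-even differences by the adjusted p alone. The study's methods also used 1.5-fold, with p up to 0.01, and name no test. The fit was tested on simulated data. Tables and figures used Python 3.11.15, numpy 2.4.6, pandas 2.3.3 and matplotlib 3.10.9.

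The genes and lists were chosen with earlier results of these data known. Values are given for genes called between lines, and other genes by count and range. From the pathway lists, genes called were named, with Stat2, Ifnar1, Ifnar2 and Irf1. Genes under the fold limit, and those that lay fully apart, were named after their values were seen.

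Alternatives were a filter on dim probe sets, all probe sets tested, centred arrays, an intensity trend with a robust prior, the methods' threshold, blocks by number, odd or even arrays alone, arrays 17 and 18 left out, each array left out in the odd-even comparisons, the 8 groups for the comparisons of lines and, chosen after seeing the data, no fold limit and odd or even arrays alone for pathway genes. Promoter sequences are from RefSeq, build GRCm38.p6.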

Additional observations from a re-analysis of the deposited data

Results flagged for a closer look

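Several pathway genes outside the 38 had odd-even differences that differed from that in Ba/F3-gp130 by the interaction test of limma. In the natural receptor line the odd-even difference was larger by 1.78 in Irf1 (adjusted p = 1.9e-06), by 1.57 in Socs1 (adjusted p = 1.8e-11), by 1.51 in Myd88 (adjusted p = 4.6e-10), by 0.98 in Sting1 (adjusted p = 0.012) and by 0.76 in Cgas (adjusted p = 0.015). In the paired SyCyR line it was larger by 1.27 in Socs1 (adjusted p = 3.8e-09), by 1.15 in Irf1 (adjusted p = 0.0045) and by 0.91 in Myd88 (adjusted p = 2.9e-05). In the single SyCyR line it was larger by 0.61 in Socs1 (adjusted p = 0.0076). None of the 38 interferon-stimulated genes passed this test without a block, and with a block of consecutive numbers Irf9 and Irgm1 passed it in the natural receptor line and Irf9 in the paired SyCyR line.

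For Rtp4 the highest Ba/F3-gp130 array, number 20 at 5.98, stood apart from the other 7. The gap to its neighbour was 0.55 of the whole range. This was 1 of 52 groups of 8 arrays checked, and chance alone gives such a gap in about 1 in 20 groups. The value lies under 7.04 and below every array of the natural receptor line.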

How the results depend on the processing

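No called difference of the 38 genes changed direction. The pathway gene Socs1, called higher in the natural receptor line than in Ba/F3-gp130, was at -0.03 over the even-numbered arrays alone. Of the counts recomputed under the alternatives, 191 stayed within 1.5 times the main count and 18 did not, and 10 values of single genes lost their call. With the replicate block by title number the count of genes called was 11 for the natural receptor line and 3 for the single SyCyR line against Ba/F3-gp130, as without it, and the block changed no count between lines. With a replicate block of consecutive numbers, the odd-even difference differed from that in Ba/F3-gp130 in 2 genes for the natural receptor line and 1 for the paired SyCyR line, against 0 in each, and the cause was not tested. No label pairs the arrays. Deviations of same-numbered arrays from the line means correlated at 0.19 or more among the receptor lines and at -0.07 or more with Ba/F3-gp130. From the means of line and odd or even number the lowest correlation was between 0.06 and 0.12 in all 6 pairs of lines. The median of a pair of lines was 0.25 to 0.35 for same-numbered arrays and -0.057 to -0.036 for other numbers. Same-numbered arrays thus shared part of their deviation, and the main fits took no account of it. The filter on dim probe sets left 24 of the 38 genes and 1 call, against 2, between the SyCyR lines, because Gbp3 was no longer tested.

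Without a fold limit the counts of genes were 21 (19 higher), 1 and 10 (8 higher) for the natural receptor line, the paired SyCyR line and the single SyCyR line against Ba/F3-gp130, when 17.9%, 6.23% and 14.7% of all probe sets passed. They were 20 and 21 for the SyCyR lines against the natural receptor line, 6 between the SyCyR lines, and 2 and 1 between odd and even numbers in the natural receptor line and the paired SyCyR line. Leaving out 1 array at a time gave 0 to 2 genes called between odd and even numbers in the natural receptor line (2 without array 17, 1 without 14, 16 or 19) and 0 to 1 in the paired SyCyR line (1 without array 16). The odd-even difference in the natural receptor line against that in Ba/F3-gp130 gave 0 to 1, with 1 gene without Ba/F3-gp130 array 13 or 18.

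Most of the calls lost lay near the fold limit. Against Ba/F3-gp130, Irf9 and Trim30a in the natural receptor line lost theirs with centred arrays (0.57 and 0.58), without arrays 17 and 18 (0.55 and 0.55) and over even-numbered arrays (0.31 and 0.56, adjusted p = 0.077 and 0.073). Sp100 between the paired SyCyR line and the natural receptor line lost its call with centred arrays (-0.58) and over odd-numbered arrays (-0.57, adjusted p = 0.084). Signals near background limit Rtp4, Gbp3, Mx1, Mx2, Cmpk2, Rsad2, Ifit1, Ifit3, Cxcl10, Oas3 and Oasl2, and Dhx58 in the single SyCyR line.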
